A study of Mus musculus with 5 samples.

Results

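The comparison set 1 Notch1 conditional knockout (cKO) library against 2 wild-type (WT) libraries of sorted fetal mouse muscle progenitors and their descendants. Its members were the named genes whose RPKM (a read count divided by gene length and library size) averaged 1 or more over the 5 libraries of the study: 11543 of 25873 named genes, read in 3 of 5 samples. All fetuses were C57BL/6J at E16.5 and carried Pax7-CreER, a tamoxifen-activated recombinase driven from the gene for the progenitor factor Pax7, and the Rosa-tdTomato reporter; these alleles alone made up the WT group. Notch1 cKO fetuses carried Notch1 f/f in addition, and the 2 Notch2 cKO libraries, used here as a further comparison, came from Notch2 f/f fetuses. All mothers, those of the WT fetuses included, were given oral tamoxifen at 240 mg per kg of body weight for 2 days from E12.5, and lineage-negative, tdTomato-positive cells were sorted from limb muscle. Recombination was therefore limited to cells that had used Pax7, and to those among them that tamoxifen reached. The labels do not give which Notch1 exons were floxed, or whether libraries came from separate fetuses, so p-values measure only the spread between these libraries, which may be technical.

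Notch receptors are single-pass proteins at the cell surface. A ligand of the Delta or Jagged family on a neighbouring cell triggers their cleavage, first by an ADAM protease and then by gamma-secretase, and the freed intracellular part enters the nucleus, binds the DNA-binding protein RBPJ and switches on repressors of the Hes and Hey families. In muscle, Notch signalling is known for holding Pax7-positive progenitors back from differentiation, and for collagen genes through which progenitors build their niche.

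The RPKM values implied totals of 20740258 to 28827897 reads per library, and a mean of 738 reads stood behind the median gene. Libraries are called by group and column tag: Notch1 cKO Em8, WT Em2, WT Em4, Notch2 cKO Em3 and Notch2 cKO Em4. The column names end in digits that Notch1 cKO Em8 shares with Notch2 cKO Em3 and with neither WT library. Their meaning is not stated, and the Notch1 cKO and WT libraries can be compared apart from the digits only through the Notch2 cKO libraries. The WT libraries differed from each other with gene length: across genes, Spearman's rho between length and the log2 difference WT Em2 minus WT Em4 was −0.48, against 0.094 for Notch1 cKO Em8 minus the WT mean. The median absolute log2 difference was 0.32 between the WT libraries and 0.15 between Notch1 cKO Em8 and their mean. These are unlike measures, since the second is taken to a mean of 2 libraries. The 8 muscle lineage markers were above 4 RPKM in all 5 libraries, and they summed to 1575 RPKM in the Notch1 cKO library, below the WT sums of 1701 and 2123 and the Notch2 cKO sums of 2432 and 2658. Of these 8, 5 stood below both WT libraries, 2 within and 1 above, with a median log2 difference of −0.26. Markers of other cells were present too. In Notch1 cKO Em8 the erythroid markers summed to 1750 RPKM (981 and 1224 in WT). That was above the sum of the 8 muscle lineage markers but below the 10440 RPKM of the myoblast commitment and fusion list. Pericyte and smooth muscle markers summed to 627 RPKM in that library and interstitial fibroblast markers to 604. An average of 1 RPKM or more was reached by 5 of 12 of the former and 16 of 19 of the latter. Of lists with lower sums, 5 of 14 endothelial, 4 of 17 haematopoietic and 3 of 13 Schwann and neural markers averaged 1 RPKM or more. The defining genes Pecam1, Ptprc and Sox10 were below 1 RPKM throughout. The endothelial sum of the Notch1 cKO library, 43.9 RPKM, was the highest of the 5 (23.4 and 29.9 in WT), and 33.9 of it came from Egfl7 alone.

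Because the knockout group holds 1 library, each gene was first placed above, within or below the range of the WT libraries. Of all genes tested, 24.3% (2806) stood above both WT libraries, 26.1% (3009) below both and 49.6% (5728) within. Counts for the gene lists below are to be read beside these shares. The same shares were 45.8% above and 16.8% below in Notch2 cKO Em3, while Notch2 cKO Em4 had 45.8% and 25.3%. At least 1.5-fold beyond the nearer WT library, on the RPKM + 1 scale, stood 128 genes above (1.11%) and 63 below (0.546%), and 58 of these 191 had a mean under 50 reads. A limma fit over all 5 libraries, in which the lone knockout library is assumed to vary like the others, called 5 genes higher (0.0433%) and 3 lower (0.026%) at an adjusted p under 0.05, while 213 (1.85%) had an unadjusted p under 0.05. The 5 higher genes were Ftl1-ps2, Ndufa4l2, Mfap5, DQ267101 and Rarres2, and the 3 lower were Notch1, Snord49a and Mir1898; 4 of the 8, Ftl1-ps2 and the small RNA genes, fall outside the rule for named genes and were named after their values were seen. An exact permutation test of 1 library against 2 has too few arrangements to reach a p under 0.05, so each of these calls borrows its spread across genes. With the column digits as a term of the fit 6 of the 8 calls were lost, among them Notch1 (adjusted p = 0.34), Mfap5 (0.56) and Rarres2 (0.265), while Ftl1-ps2 and Ndufa4l2 still passed. No gene was called when genes of any level were tested or when a trend on gene length was removed, settings in which the prior degrees of freedom of the fit fell from 103.8 to 2.711 and 7.154.

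**Figure D1:**
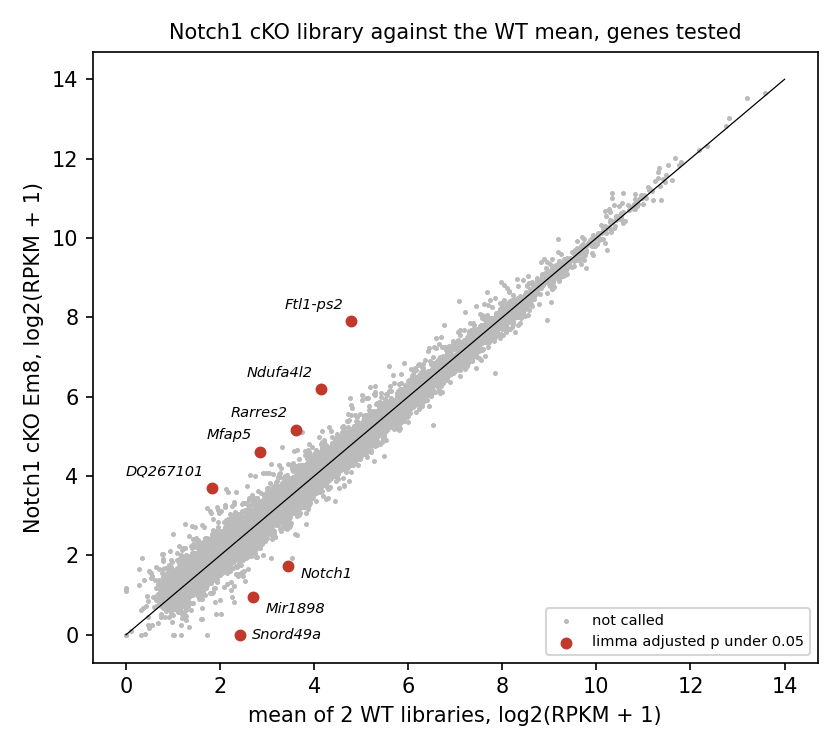
Each point is a gene tested, with the mean of the WT libraries on the x axis and Notch1 cKO Em8 on the y axis, both as log2(RPKM + 1); the line marks equality and red points are the 8 genes called by limma. Ftl1-ps2 stands farthest above the line, and Notch1 is one of 3 called genes below it.

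Sequences around the start of 4 genes are shown because Notch1 is the targeted gene, Dner and Lypd6 are protein-coding genes that stood below both WT libraries and were called lower than in Notch2 cKO, and Egfl7 stood above both WT libraries and lies near Notch1. Each is the 250 bases before the RefSeq start (GRCm38.p6), written 5′ to 3′ on the gene's strand, with any match to TGGGAA, the core of the site that RBPJ binds, in capitals (searched on both strands). The windows are chr2:26503823-26504072 (minus strand) for Notch1 and chr1:84696222-84696471 (minus strand) for Dner. Those on the plus strand are chr2:50066179-50066428 for Lypd6 and chr2:26580833-26581082, the first of 3 start sites, for Egfl7. The Notch1 and Egfl7 windows lie inside the GENCODE intervals given below for these genes, since GENCODE places the outer start of each farther upstream.
Notch1: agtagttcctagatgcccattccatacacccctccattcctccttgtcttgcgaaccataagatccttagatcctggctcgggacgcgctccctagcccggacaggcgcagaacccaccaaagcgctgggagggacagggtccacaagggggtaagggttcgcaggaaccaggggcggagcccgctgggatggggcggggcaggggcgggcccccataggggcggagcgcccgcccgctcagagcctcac
Dner: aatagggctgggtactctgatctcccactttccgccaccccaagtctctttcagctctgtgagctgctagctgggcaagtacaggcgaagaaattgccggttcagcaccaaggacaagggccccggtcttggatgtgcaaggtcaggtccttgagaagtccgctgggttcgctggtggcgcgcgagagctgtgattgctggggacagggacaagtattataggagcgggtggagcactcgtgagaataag
Lypd6: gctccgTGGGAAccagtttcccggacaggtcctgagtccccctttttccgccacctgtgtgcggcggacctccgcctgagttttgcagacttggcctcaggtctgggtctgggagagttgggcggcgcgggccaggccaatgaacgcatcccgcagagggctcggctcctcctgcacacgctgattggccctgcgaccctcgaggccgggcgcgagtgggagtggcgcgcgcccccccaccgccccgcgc
Egfl7: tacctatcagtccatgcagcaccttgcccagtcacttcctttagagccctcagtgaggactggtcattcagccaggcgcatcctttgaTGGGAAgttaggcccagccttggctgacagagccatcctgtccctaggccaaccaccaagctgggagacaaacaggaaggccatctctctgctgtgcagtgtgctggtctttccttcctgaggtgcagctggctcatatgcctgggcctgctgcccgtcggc
The Lypd6 window held the motif 244 bases before the start and the Egfl7 window 162 bases before it, while those of Notch1 and Dner, and those of the other 2 Egfl7 start sites, held none. The motif stood in 21.6% of all 32851 windows of this length and in those of 23.2% of the 8880 tested genes with an entry. Among genes at least 1.5-fold beyond both WT libraries it stood in 5 of 28 with an entry on the lower side. On the higher side it stood in 24 of 76, and in the list of Notch targets in 4 of 13. The genes shown are examples, since others, Pmaip1 among them, also met the terms given for Dner and Lypd6.

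Notch1 transcript was lower in the Notch1 cKO library than in all 4 others, and Hes1, Hey1 and Id1 were below both WT libraries, whereas the other receptors, Heyl and Nrarp lay within the WT range. Notch1 (GRCm38 chromosome 2, 26457903 to 26516663, minus strand) was measured at 2.33 RPKM in Notch1 cKO Em8 against 7.26 and 13.5 in WT Em2 and WT Em4, beside 11.8 in Notch2 cKO Em3 and 8.39 in Notch2 cKO Em4. The knockout value rests on 565 reads, against 1681 to 2937 in the other libraries, and did not overlap them. Notch1 fell by 1.72 on the log2(RPKM + 1) scale against WT (SE 0.39, limma adjusted p = 0.0443), and by 1.72 against Notch2 cKO (SE 0.39, adjusted p = 0.0148; 0.241 without Notch2 cKO Em3). The call against WT was lost without WT Em4 (adjusted p = 0.746), Notch2 cKO Em3 (0.116) or Notch2 cKO Em4 (0.12), and over the settings tried its adjusted p ran from 0.0141 to 1. The value pools all exons and all sorted cells, and in such bulk RNA fewer cells with a transcript and less of it per cell cannot be told apart.

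Of the Notch receptor and ligand genes, 8 of 11 were tested: 2 stood above both WT libraries, 4 within and 2 below, with a median log2 difference of 0.04 against 0.009 over all genes. Notch2 was at 3.90 RPKM in Notch1 cKO Em8, between 2.40 in WT Em2 and 4.17 in WT Em4. Notch3 was at 11.04 RPKM, at the upper end of the WT values of 5.74 and 11.05, and above the Notch2 cKO values of 6.48 and 5.97. Neither receptor passed the test against WT (adjusted p = 1 for both), and Notch4 was near 0 in all libraries, at 0.110 to 0.256 RPKM. Among the ligands, Dll1 stood at 7.67 RPKM, next to 7.71 and 11.5 in WT and below 21.1 and 15.8 in Notch2 cKO. Jag1 stood at 5.86 RPKM against 3.996 and 5.73 in WT. Dlk1, a non-canonical ligand and the most abundant gene of the list, stood at 404 RPKM against 229 and 342. None of these ligands passed the test against either group (Dll1 against Notch2 cKO, log2 difference −1.15, adjusted p = 0.194).

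Genes for processing of the receptor and for its nuclear complexes lay mostly within the WT range. Of 27 tested genes for glycosylation, cleavage, endocytosis and nuclear complexes, 20 lay within the WT range, 4 above and 3 below, with a median log2 difference of 0.07 and no call. Rbpj itself was at 12.2 RPKM in Notch1 cKO Em8, between 8.77 and 13.5 in WT. Numb, an inhibitor of the receptor, was at 2.25 RPKM against 3.09 and 2.92 in WT, beside 4.42 and 7.57 in Notch2 cKO, the lowest of the 5 libraries. Aph1a, a subunit of gamma-secretase, was at 5.09 RPKM against 9.19 and 6.63 in WT.

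The 16 tested genes of the list of Notch targets did not move one way. In Notch1 cKO Em8, 5 stood above both WT libraries, 6 within and 5 below, beside 24.3% above and 26.1% below over all genes. Of those below, 3 were at least 1.5-fold lower than the nearer WT library, where 0.546% of all genes were. These were Hes1, Id1 and Hey1, and none was called by limma. Hes1, the repressor most directly tied to the cleaved receptor, was at 96.1 RPKM in Notch1 cKO Em8 against 271 and 194 in WT, beside 162 and 143 in Notch2 cKO. The knockout library was the lowest and the groups did not overlap (log2 difference −1.25, SE 0.33, adjusted p = 0.16, and from 0.054 to 1 over the settings tried). Hey1 was at 13.7 RPKM against 24.4 and 27.1 in WT, beside 18.6 and 30.7 in Notch2 cKO (log2 difference −0.86, adjusted p = 1). Heyl, by contrast, lay within the WT range, at 12.8 RPKM against 11.1 and 20.1. Hes6, which counteracts Hes1, was at 114.5 RPKM against 141 and 164, below both. Nrarp, a feedback inhibitor of the Notch complex, was at 2.50 RPKM, within 2.205 to 3.64. Hes5 was listed at 0 in Notch1 cKO Em8 and did not reach 1 RPKM in any library. Both Id genes of the list, inhibitors of bHLH factors such as MyoD that also respond to BMP, were lowest in Notch1 cKO Em8. Id1 was at 243 RPKM against 511 and 481 in WT, beside 309 and 361 in Notch2 cKO. Id3 was at 832 RPKM against 1154 and 1257 in WT, beside 1010.3 and 926 in Notch2 cKO. Neither passed (adjusted p = 0.828 and 1). On the other side stood Cd44, a hyaluronan receptor, at 64.8 RPKM against 36.5 and 57.5 in WT, and Sox9 at 15.8 against 10.1 and 14.6. The median log2 difference of the list was 0.18, and it turned with the WT library used: −0.29 against WT Em4 alone and 0.52 against WT Em2 alone.

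**Figure D2:**
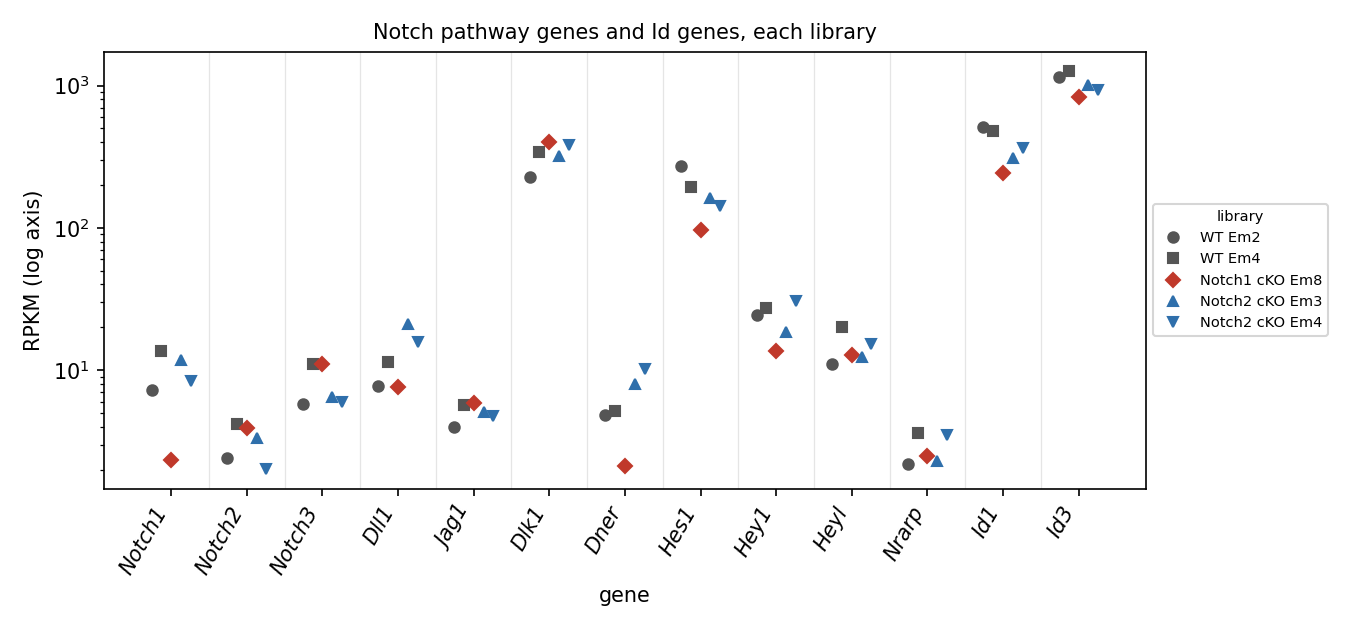
RPKM on a log axis for 13 Notch pathway and Id genes, with one symbol per library (grey for WT, red for Notch1 cKO Em8, blue for Notch2 cKO). The red symbol is the lowest of its column for Notch1, Dll1, Dner, Hes1, Hey1, Id1 and Id3, and lies within the WT symbols for Notch2, Notch3, Heyl and Nrarp.

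Genes next to Notch1 were also read, in a window chosen after the values were seen. Of 37 tested genes within 1 Mb on either side, 11 stood above both WT libraries, 20 within and 6 below, with a median log2 difference of 0.07 and no limma call. Egfl7, which codes for a secreted protein of endothelial cells and lies 63.4 kb from Notch1 on the plus strand (chromosome 2, 26580014 to 26593120), was 1 of 2 in the window that stood at least 1.5-fold above both; the other was Paxx, a DNA repair factor. Egfl7 was at 33.9 RPKM in Notch1 cKO Em8 against 15.9 and 18.1 in WT, beside 17.2 and 19.5 in Notch2 cKO. It was the highest of the 5 libraries by a clear gap but did not pass (log2 difference 0.96, adjusted p = 0.991). Of the 5 tested endothelial markers, Egfl7 among them, 2 stood above both WT libraries, 2 within and 1 below. The other above was Plvap, a protein of endothelial pores, at 2.29 RPKM against 1.42 and 1.32, while the defining genes Pecam1, Cdh5 and Kdr were below 1 RPKM and none of the 3 was tested. The part of endothelial cells in the Egfl7 value was not tested.

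Progenitor genes stood above both WT libraries more often than below, and commitment genes below more often than above. Over all genes, 24.3% stood above both and 26.1% below. Of 35 tested progenitor and quiescence genes, 13 stood above both WT libraries, 18 within and 4 below, with a median log2 difference of 0.16. That median was −0.10 against WT Em4 alone and 0.40 against WT Em2 alone. Pax7, which specifies these progenitors and drives the recombinase, was at 13.4 RPKM in Notch1 cKO Em8 against 9.90 and 11.96 in WT, beside 10.7 and 4.15 in Notch2 cKO. Pax3 was at 1.58 RPKM against 0.836 and 1.04 in WT. Both were highest in the knockout library by a small margin. Calcr, the calcitonin receptor that marks quiescent satellite cells, was at 3.81 RPKM against 1.66 and 2.04 in WT, beside 1.06 and 2.44 in Notch2 cKO. Cd34 was at 22.01 RPKM against 12.2 and 13.8, and Cav1, a caveola protein, at 46.0 against 25.5 and 25.6. These 3 genes were 1.5-fold or more beyond both WT libraries, and none was called. In the other direction stood Eya2, a transcriptional cofactor, at 5.75 RPKM against 8.58 and 12.03 in WT.

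Of 37 tested genes of myoblast commitment and fusion, 15 stood below both WT libraries, 17 within and 5 above, and the median log2 difference was −0.17 (−0.29 against WT Em4 alone, 0.02 against WT Em2 alone). No gene of the list was called. Myf5, an early determination factor, was at 44.8 RPKM against 54.3 and 50.4 in WT, beside 32.5 and 41.8 in Notch2 cKO. Myod1 was at 109 RPKM against 135 and 167 in WT, beside 180 and 188 in Notch2 cKO. Myog was at 944 RPKM against 1053 and 1272 in WT, beside 1655 and 1737 in Notch2 cKO. For Myod1 and Myog the knockout library was the lowest of the 5, while Myf5 lay between the WT and Notch2 cKO values. Mymk, the membrane protein that fuses myoblasts, was at 117 RPKM against 146 and 143 in WT, a smaller gap than that to Notch2 cKO (157 and 191). Chrna1, a subunit of the acetylcholine receptor of the muscle endplate, was the member farthest below the WT range, at 35.1 RPKM against 54.2 and 54.7. Klhl41, a sarcomere assembly factor, followed at 19.6 against 28.6 and 28.1. On the higher side stood Cdkn1a, the cell cycle inhibitor p21, at 444 RPKM against 303 and 343 in WT.

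Sarcomere genes were split, with 15 of 39 tested below both WT libraries, 11 above, 13 within and a median log2 difference of −0.04. That is 38.5% below and 28.2% above, beside 26.1% and 24.3% of all genes. Farthest above among them was Ckm, the muscle creatine kinase, at 16.8 RPKM against 10.1 and 12.1 in WT. Farthest below was Casq1, a calcium-binding calsequestrin, at 1.25 RPKM against 1.95 and 2.54, followed by the troponin Tnni1 at 261 RPKM against 337 and 374. The knockout value lay outside the WT range for each of these, and no sarcomere gene was called against WT. Against Notch2 cKO the same list stood lower, with 29 of 39 genes below both Notch2 cKO libraries, a median log2 difference of −0.44 beside −0.12 over all genes, and 3 genes called lower (0.277% of all genes were).

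Cell cycle genes lay mostly below the WT range by small steps. In both the G1/S and replication list and the G2/M and mitosis list, 20 of 36 tested genes (55.6%) stood below both WT libraries and 2 above, beside 26.1% and 24.3% of all genes. The median log2 differences were −0.15 and −0.11, beside 0.009 over all genes, and no gene of either list was called or stood 1.5-fold beyond. Rrm2, which codes for a ribonucleotide reductase subunit, was at 68.9 RPKM against 97.7 and 110 in WT. Ccne2, or cyclin E2, was at 8.29 against 15.7 and 10.7, and the mitotic kinase Aurka at 41.8 against 50.2 and 52.9. Against either WT library alone both medians stayed negative, from −0.25 to −0.06 for G1/S and from −0.16 to −0.08 for G2/M.

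**Figure D3:**
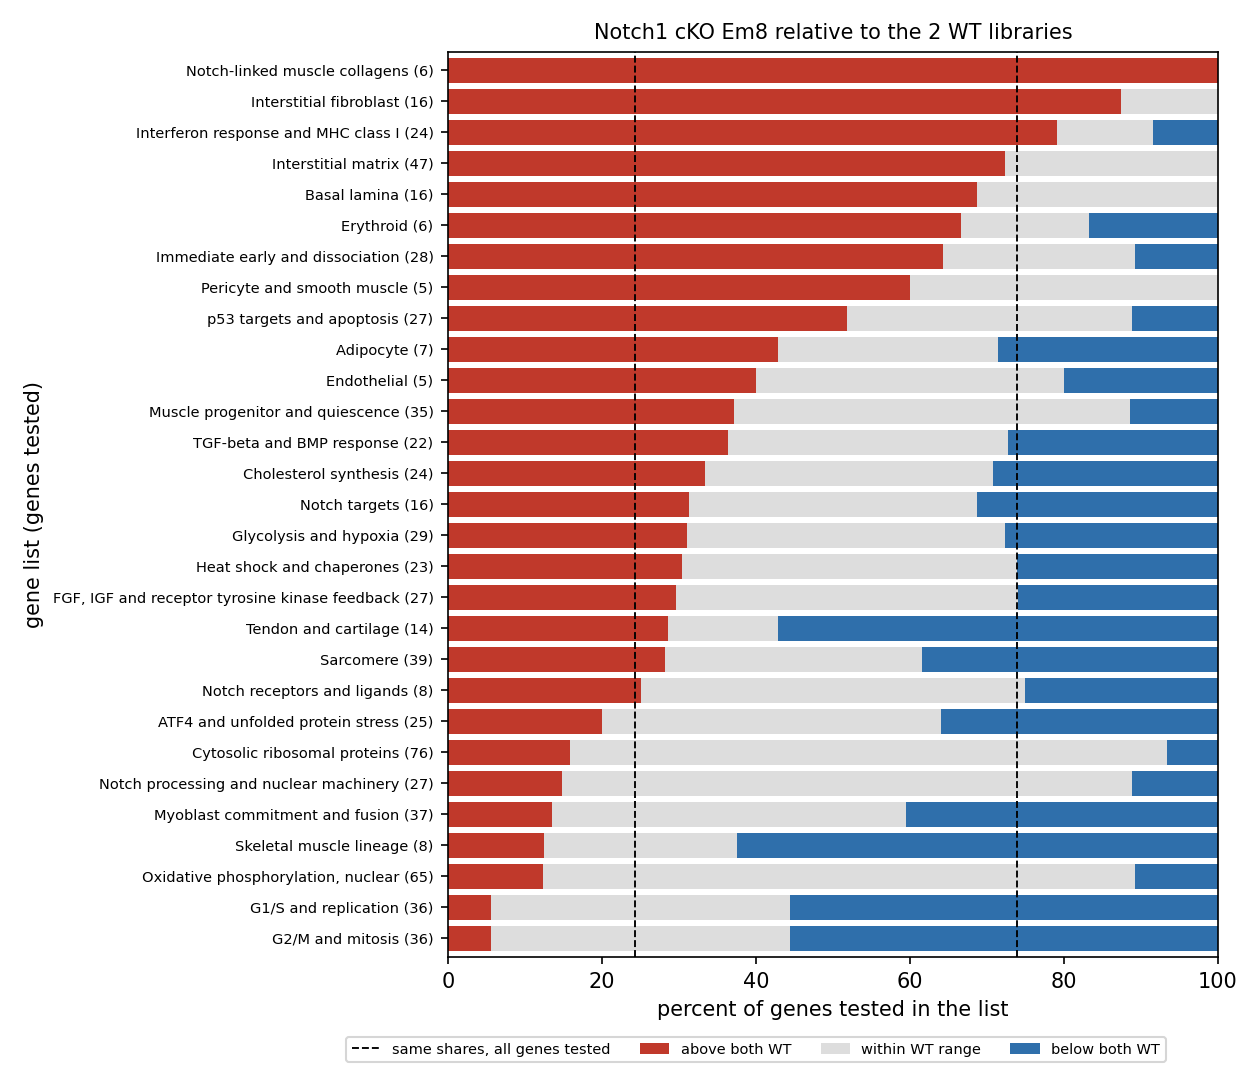
For each of 29 gene lists (number tested in brackets), the bar gives the percent of genes above both WT libraries (red), within their range (grey) and below both (blue) in Notch1 cKO Em8; the dashed lines mark the same shares over all genes tested, 24.3% above and 26.1% below. Collagen, fibroblast, interferon and matrix lists hold the largest red shares, and both cell cycle lists the smallest.

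Extracellular matrix genes were the broadest group above the WT range. Of 47 tested interstitial matrix genes 34 stood above both WT libraries, 13 within and none below, with a median log2 difference of 0.43, and 1 was called. Over all genes, 24.3% stood above both and 26.1% below. Of 16 tested basal lamina genes 11 stood above, 5 within and none below (median 0.50), and all 6 collagen genes that code for collagens V and VI, of which some are known Notch targets in satellite cells, stood above (median 0.86). Mfap5, a microfibril-associated glycoprotein (chromosome 6, 122505845 to 122529290, plus strand), was at 23.4 RPKM in Notch1 cKO Em8 against 6.12 and 6.32 in WT, beside 13.96 and 15.02 in Notch2 cKO. It rose by 1.76 on the log2(RPKM + 1) scale against WT (SE 0.37, limma adjusted p = 0.0169), and both Notch2 cKO values lay between. Without WT Em2, WT Em4, Notch2 cKO Em3 or Notch2 cKO Em4 its adjusted p was 0.118, 0.107, 0.0519 and 0.0517, and over all settings it ran from 0.0115 to 1. Against Notch2 cKO it did not pass (log2 difference 0.66, adjusted p = 0.635).

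No other gene of these lists was called against WT. Dcn, or decorin, was at 75.2 RPKM against 30.7 and 40.7 in WT, beside 50.3 and 61.3 in Notch2 cKO (log2 difference 1.07, adjusted p = 0.424). Col3a1, the most abundant gene of the fibroblast list, was at 148 RPKM against 61.7 and 120, beside 99.6 and 183 in Notch2 cKO. Decorin did not overlap any other library, while Col3a1 lay between the Notch2 cKO libraries. Of the collagen V and VI genes, Col5a3 was at 3.32 RPKM against 0.424 and 1.55, and Col6a3 at 8.49 against 2.48 and 5.47. For each of the 6 the WT Em2 value was below that of WT Em4, and Col6a1 was at 22.7 RPKM against 22.1 in WT Em4. In the basal lamina, Col15a1 was at 24.3 RPKM against 9.36 and 14.1 in WT, beside 10.9 and 6.88 in Notch2 cKO. It was the only one of the 16 that stood 1.5-fold beyond both WT libraries (log2 difference 1.01, adjusted p = 1 against WT and 0.0616 against Notch2 cKO). Col4a1, the main network collagen of the basal lamina, was at 110 RPKM against 59.5 and 89.0. Nid1, the linker nidogen, was at 17.5 against 6.58 and 11.8. The size of these medians depended on the WT library: 0.17 and 0.72 for the interstitial matrix, and 0.15 and 0.79 for the basal lamina, against WT Em4 alone and WT Em2 alone. With the trend on gene length removed they were 0.38 and 0.44.

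Genes that mark interstitial fibroblasts moved with the matrix genes. Of the 19 markers 16 were tested, and 14 stood above both WT libraries (24.3% of all genes did), 2 within and none below. At least 1.5-fold above stood 6 (1.11% of all genes), and the median log2 difference was 0.72. The median was 0.35 against WT Em4 alone and 1.10 against WT Em2 alone. Summed over all 19, the markers reached 604 RPKM in Notch1 cKO Em8 against 290 in WT Em2 and 470 in WT Em4. The sum was 414 in Notch2 cKO Em3 and 632 in Notch2 cKO Em4. Notch1 cKO Em8 was thus above both WT libraries but not above Notch2 cKO Em4, while its summed muscle lineage markers were the lowest of the 5. Pdgfra, which defines these cells, was at 1.84 RPKM against 0.559 and 1.44 in WT, and Ly6a (the sorting antigen Sca-1), Pi16 and Twist2 were below 1 RPKM in Notch1 cKO Em8. The lists share 9 tested genes; the 38 matrix genes outside the fibroblast list still held 26 above and none below, with a median of 0.39. Dpt, or dermatopontin, was the fibroblast marker farthest above WT after Mfap5, at 33.6 RPKM against 11.7 and 13.2 in WT, beside 9.76 and 14.9 in Notch2 cKO. It was the highest of the 5 libraries (adjusted p = 0.16 against WT), and rose by 1.41 against Notch2 cKO (SE 0.36, adjusted p = 0.0425). That call was lost whichever library was left out (adjusted p from 0.0536 without WT Em4 to 0.363 without Notch2 cKO Em3). Whether more cells of this type, or more of these transcripts per myogenic cell, gave the matrix values cannot be told apart.

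**Figure D4:**
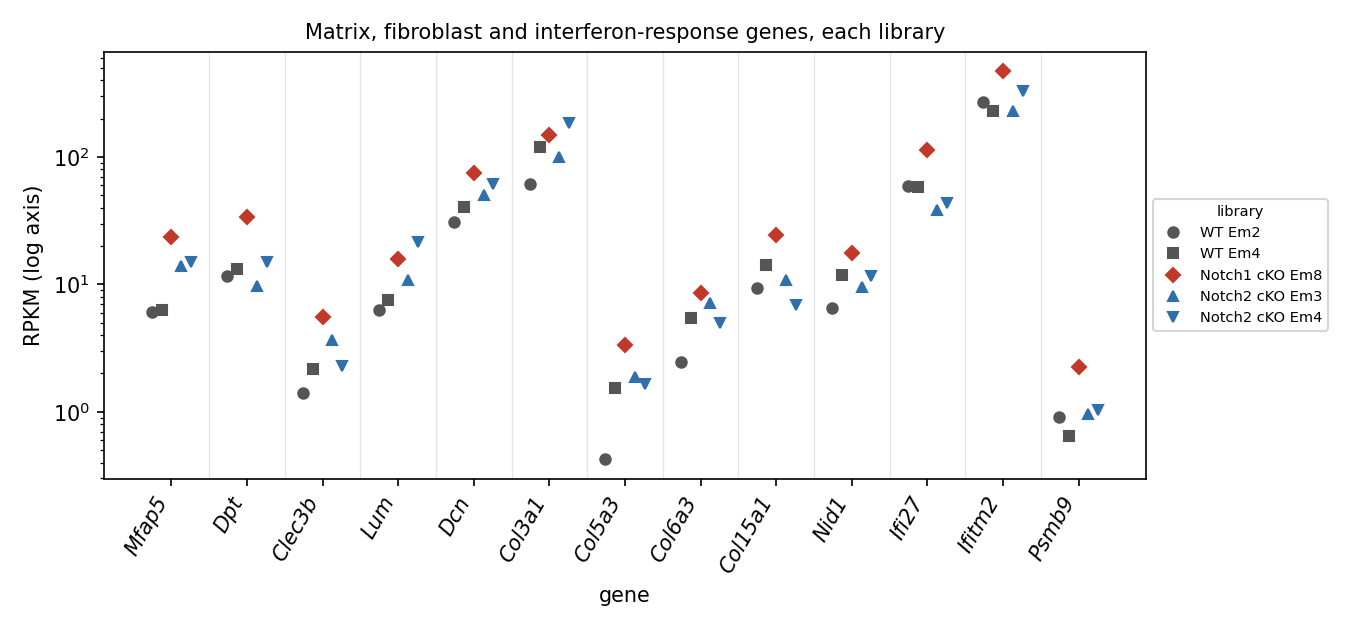
RPKM on a log axis for 13 matrix, fibroblast and interferon-response genes, 1 symbol per library as in the plot of Notch pathway genes. The red Notch1 cKO symbol lies above both grey WT symbols for all 13, and below a blue Notch2 cKO symbol for Lum and Col3a1.

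Igf1, Igfbp6 and Ccl2, which code for secreted factors, were 3 of the 12 genes named for lying farthest above the WT range. Igf1, a growth factor for muscle, was at 15.4 RPKM against 4.10 and 6.50 in WT, beside 8.77 and 7.66 in Notch2 cKO (log2 difference 1.41, adjusted p = 0.185). Igfbp6, which binds IGFs, was at 11.8 RPKM against 2.26 and 4.82. Ccl2, a chemokine for monocytes, was at 11.2 RPKM against 3.66 and 3.31. Each was highest in Notch1 cKO Em8, with the Notch2 cKO libraries between it and WT, and none passed. Over the 27 tested genes of FGF, IGF and receptor tyrosine kinase feedback, 8 stood above both WT libraries, 7 below and 12 within. The 22 genes of the TGF-beta and BMP response were split in the same manner, 8 above and 6 below, with the ligand Bmp4 at 14.9 RPKM against 7.33 and 9.46 and the Id genes on the lower side.

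Interferon-response and antigen-presentation genes formed a further group above the WT range. Of 24 tested (of 47 listed) 19 stood above both WT libraries (24.3% of all genes did), 3 within and 2 below. The median log2 difference was 0.43 (0.25 against WT Em4 alone, 0.48 against WT Em2 alone, and 0.18 with no filter on level). Ifi27, a mitochondrial protein induced by interferon, was at 114 RPKM against 59.7 and 58.6 in WT, beside 38.4 and 43.8 in Notch2 cKO. Against WT it did not pass (log2 difference 0.94, adjusted p = 0.825), and against Notch2 cKO it rose by 1.46 (SE 0.32, adjusted p = 0.01), a call that did not pass without Notch2 cKO Em3 (0.0777). Ifitm2, a membrane protein that restricts virus entry, was at 474 RPKM against 269 and 230 in WT, beside 231 and 327 in Notch2 cKO. Psmb9, an immunoproteasome subunit, passed the filter on level only through its value in Notch1 cKO Em8, 2.23 RPKM on 23 reads, and no other tested gene of any list did so. Several genes typical of a type I interferon response, Ifit1, Mx1, Mx2, Oas2 and Irf7 among them, were below 1 RPKM in all 5 libraries. Isg15 was at 1.92 RPKM against 1.03 and 0.926 in WT, on 37 reads.

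Immediate early genes, many of which respond to tissue dissociation, also stood above WT: 18 of 28 tested above both (24.3% of all genes were), 7 within and 3 below. Their median log2 difference was 0.32 (0.14 against WT Em4 alone and 0.50 against WT Em2 alone). With the column digits as a term of the fit the median was −0.02. Fosb was at 61.5 RPKM against 20.0 and 34.0 in WT, beside 21.6 and 19.2 in Notch2 cKO. It rose by 1.55 against Notch2 cKO (SE 0.34, limma adjusted p = 0.00982; 0.0736 without Notch2 cKO Em4) and did not pass against WT (adjusted p = 0.232). Nfkbia, the NF-kappaB inhibitor, was at 447 RPKM against 251 and 269. Of 23 heat shock genes, 7 stood above both WT libraries and 6 below. The inducible pair Hspa1a and Hspa1b stood above WT, at 7.92 and 9.23 RPKM, but far under the 120.2 and 165 RPKM of Notch2 cKO Em3. The 27 p53 targets held 14 genes above both WT libraries and 3 below, beside 24.3% and 26.1% of all genes. Among them Gdf15, a stress-induced cytokine, was at 10.5 RPKM against 5.52 and 5.37 in WT.

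Genes of oxidative phosphorylation and ribosomal proteins lay mostly within a WT range that was wide for them. Of 65 nuclear genes of oxidative phosphorylation 50 lay within the WT range, and of 76 cytosolic ribosomal protein genes 59, beside 49.6% of all genes. The medians against the WT mean were 0.03 and 0.05, which do not show closeness to either WT library. The median log2 level of the oxidative phosphorylation list was 9.35 in Notch1 cKO Em8, between 9.61 in WT Em2 and 8.97 in WT Em4. For the ribosomal protein list it was 8.67, between 8.96 in WT Em2 and 8.26 in WT Em4. Cyc1, a subunit of complex III, was the member farthest beyond the WT range, at 2232 RPKM against 1310.3 and 1256 in WT, beside 913 and 1170 in Notch2 cKO. Ribosomal protein RNA differed strongly between the WT libraries, summing to 64360 and 41490 RPKM in WT Em2 and WT Em4, with 52320 in Notch1 cKO Em8. Above both Notch2 cKO libraries stood 50 of the 65 oxidative phosphorylation genes and 72 of the 76 ribosomal protein genes. Their median log2 differences from Notch2 cKO were 0.47 and 0.62, beside −0.12 over all genes. Glycolysis and hypoxia (9 above, 8 below of 29), cholesterol synthesis (8 and 7 of 24) and ATF4 and unfolded protein stress genes (5 and 9 of 25) held no call.

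The other called genes belonged to none of these lists. Ndufa4l2, a mitochondrial protein induced by low oxygen (chromosome 10, 127514967 to 127517154, plus strand), was at 71.9 RPKM in Notch1 cKO Em8 against 15.5 and 18.1 in WT, beside 16.7 and 35.4 in Notch2 cKO. It was the highest of the 5 libraries at 1767 reads, and rose by 2.03 on the log2 scale against WT (SE 0.35, limma adjusted p = 0.000183) and by 1.52 against Notch2 cKO (SE 0.35, adjusted p = 0.0148). Against WT the call did not pass without WT Em2 (0.0913) or WT Em4 (0.0505), and over the settings tried its adjusted p ran from 2.99e-05 to 1; against Notch2 cKO it was lost without Notch2 cKO Em3 (0.404). Of the 29 tested glycolysis and hypoxia genes, 9 stood above both WT libraries, the farthest being Adm, or adrenomedullin, at 3.83 RPKM against 1.81 and 2.19. Rarres2, the precursor of the chemoattractant chemerin (chromosome 6, 48569696 to 48572789, minus strand), was at 35.0 RPKM against 12.1 and 10.4 in WT, beside 11.03 and 15.1 in Notch2 cKO. It rose by 1.56 against WT (SE 0.36, adjusted p = 0.0443) and by 1.37 against Notch2 cKO (SE 0.36, adjusted p = 0.0473). Neither call passed when any single library was left out, with adjusted p from 0.0766 (without Notch2 cKO Em3) to 0.383 (without WT Em4) against WT, 0.193 without WT Em2 and 0.0977 without Notch2 cKO Em4; against Notch2 cKO it ran from 0.0568 to 0.334. Among genes below the WT range without a call, Crabp2, a retinoic acid carrier, was at 38.3 RPKM against 100.4 and 83.1 in WT, beside 57.6 and 49.9 in Notch2 cKO (log2 difference −1.23, adjusted p = 0.148).

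Ftl1-ps2, a processed pseudogene of the ferritin light chain (chromosome 10, 130592157 to 130592705, minus strand), had the largest difference of all calls. It was at 239 RPKM in Notch1 cKO Em8 against 19.04 and 37.2 in WT, beside 16.6 and 31.5 in Notch2 cKO. The knockout library stood far above the other 4, with a rise of 3.11 against WT (SE 0.34, limma adjusted p = 6.7e-11) that still passed whichever library was left out (adjusted p from 6.78e-16 to 0.00277). Its parent gene Ftl1 was within the WT range, at 255.9 RPKM, under 303.8 in WT Em2 and above WT Em4. Reads of a processed pseudogene and its parent can be assigned to either, so the level of Ftl1-ps2 is uncertain. The remaining calls were small RNA genes on few reads, in libraries not made for small RNA. Snord49a had 0 reads in Notch1 cKO Em8, which allows up to 3, against 8 and 5 in WT (adjusted p = 0.000164; 0.142 without WT Em2 and 0.0504 without WT Em4). Mir1898 had 2 reads against 9 and 13, and the snoRNA gene DQ267101 had 22 against 3 and 6; neither call passed when any single library was left out (adjusted p from 0.0691 to 0.463 for Mir1898 and from 0.0504 to 0.567 for DQ267101).

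The direct comparison with Notch2 cKO, which asks what set the Notch1 cKO library apart from the other knockout, called 24 genes higher (0.208%) and 32 lower (0.277%), while 1000 (8.66%) had an unadjusted p under 0.05. Both comparisons share Notch1 cKO Em8, and the median log2 difference over all genes was −0.12 here. Dner, a transmembrane protein with EGF repeats that can bind Notch1, was at 2.13 RPKM in Notch1 cKO Em8 against 4.85 and 5.14 in WT, beside 7.94 and 10.2 in Notch2 cKO. Lypd6, a modulator of Wnt signalling and acetylcholine receptors, was at 1.57 RPKM against 4.17 and 5.44 in WT, beside 6.49 and 7.63 in Notch2 cKO. For both genes the knockout library was the lowest and Notch2 cKO lay above WT. Dner fell by 1.67 (SE 0.39, limma adjusted p = 0.0207) and Lypd6 by 1.64 (adjusted p = 0.0242) against Notch2 cKO, and neither passed against WT (adjusted p = 1 and 0.807). Neither call passed without Notch2 cKO Em3 (0.0777 and 0.106) or Notch2 cKO Em4 (0.525 and 0.463). Pmaip1, which codes for the apoptosis factor Noxa, was at 4.82 RPKM, near the WT values of 7.08 and 5.49 and below 15.6 and 17.6 in Notch2 cKO (log2 difference −1.59, adjusted p = 0.0228; 0.125 and 0.467 without Notch2 cKO Em3 or Em4). Rbp7, a retinol carrier, was at 69.7 RPKM against 56.4 and 39.3 in WT, beside 20.9 and 27.9 in Notch2 cKO (log2 difference 1.49, adjusted p = 0.0105; 0.116 without Notch2 cKO Em3). For Pmaip1 and Rbp7 the Notch1 cKO value was closer to WT than to Notch2 cKO.

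Markers of cells that the sort should have left out also separated the knockouts. Of 6 tested erythroid genes, 4 stood above both WT libraries, 1 within and 1 below, the last by at least 1.5-fold. Against Notch2 cKO, 5 stood above both libraries and 1 below both. Hbb-bs, an adult beta-globin, was at 224 RPKM in Notch1 cKO Em8 against 101 and 112 in WT, beside 70.0 and 56.3 in Notch2 cKO. It rose by 1.82 against Notch2 cKO (SE 0.32, limma adjusted p = 0.00025) and did not pass against WT (log2 difference 1.06, adjusted p = 0.418). Among these 6 genes, 4 were called higher than in Notch2 cKO. The summed erythroid level was 1750 RPKM, against 981 and 1224 in WT, beside 522 and 450 in Notch2 cKO. Klf1, a transcription factor of red cell precursors, was below 1 RPKM throughout. Globin genes have near-identical copies, so reads may be split between them. All 3 tested mast cell genes were called lower than in Notch2 cKO. Cma1, or mast cell chymase, was at 0.436 RPKM against 1.52 and 4.55 in WT, beside 4.62 and 12.7 in Notch2 cKO, on 12 reads in Notch1 cKO Em8 (log2 difference −2.61, adjusted p = 3.26e-05). The summed mast cell level was the lowest of the 5 libraries, at 1.56 RPKM against 3.79 and 10.1 in WT. The cartilage genes Matn1, Col9a2 and Col9a3 and the related Mia were called lower as well, on the strength of Notch2 cKO Em4: Matn1 was at 24.2 RPKM there, 0.120 in Notch2 cKO Em3 and 0.137 in Notch1 cKO Em8. Without Notch2 cKO Em4 the adjusted p was 1 for each of the 4, and none of them passed without either WT library. The part of these cells in the other differences was not tested.

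**Figure D5:**
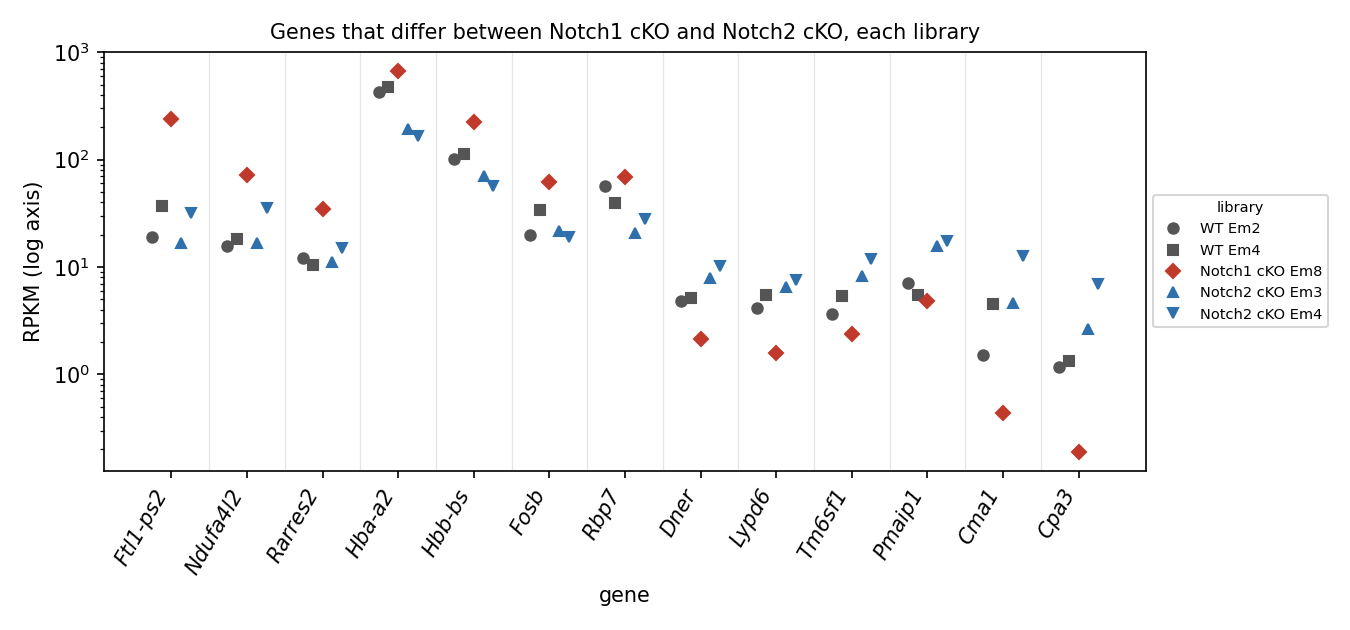
RPKM on a log axis for 13 genes that differed between Notch1 cKO and Notch2 cKO, 1 symbol per library. The red Notch1 cKO symbol lies above both blue Notch2 cKO symbols for the first 7 genes and below both for the other 6, with the grey WT symbols between the groups for all but Ftl1-ps2, Ndufa4l2, Rarres2 and Fosb.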

How the data were processed

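Transcript levels were read from 1 deposited table of 27179 rows, whose 5 columns of values are the authors' RPKM, per the file headers. Per the labels' protocols, total RNA was amplified with a SMART-Seq v4 kit for low input and sequenced from both ends; per the submitters' processing notes, bcl2fastq 2.20.0 and the build mm10 were used. Which aligner, counter and gene annotation were used is not stated there. Rows without a gene name (1306, with 2.19% to 3.07% of a library's RPKM) were left out, and 0 columns of values were not used. The columns carry no replicate number and were assigned by group.

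Levels were taken as log2(RPKM + 1), a scale that understates the change of low genes, for the 11543 genes averaging 1 RPKM or more. limma 3.58.1 in R 4.3.3 (lmFit, eBayes with trend) was fitted to all 5 libraries with 1 mean per group; p-values are two-sided, adjusted by Benjamini-Hochberg over all genes tested, with a threshold of 0.05. The fit had 2 residual and 103.8 prior degrees of freedom, and the median SE against WT was 0.37. It was tested on simulated data first. Lists are described by counts and medians only. Of the tested genes, 49 passed the filter on level only through Notch1 cKO Em8, 40 of them above both WT libraries.

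Steps between low RPKM values gave whole reads for 11541 genes (within a tolerance of 0.02), 99.1% to 99.2% of each implied total; 96.9% of gene lengths came out whole, where 4% would by chance. Reads carry no molecular identifiers. Positions are from GENCODE M21 on GRCm38, matched by symbol for 11188 tested genes, and sequences from RefSeq on GRCm38.p6. Its table held no entry for Hes1, Hey1, Heyl, Id1, Mfap5, Ndufa4l2 or Ifi27.

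The members and lists were chosen with earlier results of these data known. Genes named in the text were 15 Notch and myogenic genes, up to 10 calls per direction with a mean of at least 5 RPKM, up to 12 genes per direction farthest beyond the nearer WT library, up to 3 per direction in each list, and the most abundant marker of each other cell type. The other genes given with values were chosen after their values were seen, and some genes under the rule are not reported here.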

Additional observations from a re-analysis of the deposited data

Results flagged for a closer look

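The genes below differed between the Notch1 cKO library and the 2 Notch2 cKO libraries, by the limma test of that difference itself (log2 Notch1 cKO minus Notch2 cKO, adjusted p). None of these differences has an explanation tested here. Genes also called against WT were Notch1 (−1.72, 0.0148), Ndufa4l2 (1.52, 0.0148), Rarres2 (1.37, 0.0473), Ftl1-ps2 (3.32, 2.81e-12), Snord49a (−2.04, 0.00159) and Mir1898 (−2.15, 0.000445). The globin genes Hba-a2 (1.91, 0.000336), Hba-a1 (1.86, 0.00025), Hbb-bs (1.82, 0.00025) and Hbb-b1 (1.77, 0.000849) were higher. Of 6 tested erythroid genes, 1 stood below both Notch2 cKO libraries.

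Other higher genes were Crip1 (1.76, 0.0173), a LIM-domain protein, the ribosomal protein gene Rps3a1 (1.59, 0.0185), Fosb (1.55, 0.00982), Rbp7 (1.49, 0.0105), Ifi27 (1.46, 0.01) and Dpt (1.41, 0.0425). Rps3a1 did not stand alone: 72 of 76 ribosomal protein genes were above both Notch2 cKO libraries, with a median log2 difference of 0.62 beside −0.12 over all genes. In Notch1 cKO Em8 Crip1 was at 2072 RPKM, above 1719 and 952 in WT, and Rps3a1 was at 777.2 RPKM beside 777.1 and 687.2.

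Lower genes were Tm6sf1 (−1.68, 0.0207), Dner (−1.67, 0.0207), Lypd6 (−1.64, 0.0242), Pmaip1 (−1.59, 0.0228) and Kifc1 (−1.53, 0.0473), which codes for a mitotic kinesin. The cartilage-related genes Matn1 (−2.22, 0.0251), Col9a3 (−2.13, 0.0473), Mia (−1.95, 0.0245) and Col9a2 (−1.83, 0.0473) were lower as well, and their Notch2 cKO libraries lay far apart, with Col9a3 at 0.695 and 37.2 RPKM.

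Of these 25 genes 4 still passed whichever library was left out, namely Ftl1-ps2, Hba-a1, Hbb-bs and Mir1898. Without Notch2 cKO Em3 13 were lost and without Notch2 cKO Em4 17, Hba-a2 (0.182), Hbb-b1 (0.151) and Snord49a (0.508) among the latter. Without Notch2 cKO Em3 or Em4 the adjusted p was 0.581 or 0.956 for Crip1, 0.0531 or 1 for Rps3a1, 0.0521 or 0.686 for Tm6sf1, and 0.542 or 0.0641 for Kifc1 (0.0575 without WT Em2). The difference for Rps3a1 was 2.10 without the first and 1.08 without the second.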

How the results depend on the processing

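No paired analysis was possible because the columns carry no replicate numbers. The main counts were 5 higher and 3 lower against WT, and 24 and 32 against Notch2 cKO. Against WT the counts became 9 and 6 with a pseudocount of 0.1, 1 and 0 with quantile normalization, 2 and 1 with limma voom on the recovered reads, and 19 and 10 with the column digits as a term, where 6 of the 8 main calls were lost (Snord49a and DQ267101 at an adjusted p of 1, Mir1898 at 0.516). With no filter on level or with the gene length trend removed they were 0 and 0 (301 and 292 genes at an unadjusted p under 0.05), and also 0 and 0 against Notch2 cKO (983 and 912). Against Notch2 cKO, 14 genes were lower after median-of-ratios scaling, 8 higher and 5 lower with quantile normalization, 9 and 5 with voom, 11 and 15 with eBayes without a trend, and 12 and 19 with the digits. Leaving out 1 library at a time gave 1 to 3 higher and as few as 0 lower genes against WT (0 without WT Em4), and 13 to 42 higher genes against Notch2 cKO.

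Outside the WT range by 1.5-fold stood 231 genes above and 126 below with a pseudocount of 0.1, and 63 and 35 with a mean of at least 5 RPKM, where 1498 stood above both; without a filter 6583 stood above both. With 1 WT library as the reference, 4277 to 7060 genes stood above it, 4481 to 7263 below, 383 to 874 above by 1.5-fold and 233 to 335 below.

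Against Notch2 cKO, Matn1 and Col9a3 turned to 0.021 and 0.12 without Notch2 cKO Em4 (−4.47 and −4.38 without Notch2 cKO Em3), and to 0.021 and 0.12 with the digits as a term. With that term the differences from WT turned for Pax7 (−0.91), Myf5 (0.13), Rps3a1 (−0.93), Matn1 (3.32), Col9a3 (3.38), Mia (2.11) and Col9a2 (2.49). In this fit the digits of the WT libraries, which are not written alike, were taken as the same. The digits term therefore came only from the gap between Notch2 cKO Em3 and Notch2 cKO Em4. These libraries stood at 10.7 and 4.15 RPKM for Pax7, and at 0.120 and 24.2 RPKM for Matn1. What lies behind that gap was not tested. Of the values for single genes, 854 kept their direction and side of the threshold, 232 no longer passed and 11 turned. The 854 include genes not called in the main fit, which had no call to lose. Among the calls against WT, Rarres2 kept its call in the fewest settings, 3 of 15. Notch1 kept it in 7 of 15, and Ftl1-ps2 in the most, 13 of 15. With 1 knockout library, differences of the size seen between the WT libraries were not detectable, and 117 tested genes had a mean under 10 reads.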
